A study of Rattus norvegicus with 14 samples.

Results

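Fetal rat testes and ovaries at embryonic day 14 (E14) were compared over 15866 probe sets, each a group of short probes read as 1 intensity. The comparison rests on 4 of the study's 14 single-channel Affymetrix arrays, namely 2 of E14 testis and 2 of E14 ovary, chosen by their titles. The other 10 arrays hold E13 and E16 testis, E13 testis after 3 days of culture, and E13 and E16 ovary, again 2 arrays a group. Each RNA was a pool of 20 to 40 gonads, and the 2 pools of a group were independent. The labels name no strain, allele or agent for any fresh gonad, and whole gonads were used, so all cell types of the organ contribute. In such bulk RNA, fewer cells of a type and less RNA per cell cannot be told apart.

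The early gonad of both sexes holds the same supporting and steroidogenic precursors together with germ cells. In the male, the Y-linked gene Sry turns supporting cells into Sertoli cells, which enclose germ cells in cords and secrete AMH, the hormone that makes the Müllerian duct regress. In the female, supporting cells become pre-granulosa cells, a path that depends on Wnt4, Rspo1 and Foxl2 and includes follistatin (Fst) and Bmp2. Fetal Leydig cells, the androgen source, arise in the testis after Sertoli cells. Among the genes of these lineages, Sox9, Dhh, Foxl2, Ddx4, Pou5f1 and Stra8 matched no named probe set, so they are not analysed here.

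The arrays did not part cleanly by sex. Pearson's r on log2(intensity + 16), across probe sets that are not independent replicates, was 0.970 between the testis arrays and 0.949 between the ovary arrays. Between sexes, r lay between 0.935 (testis 2 with ovary 1) and 0.967 (testis 2 with ovary 2). Of all probe sets, 2.26% differed at least 2-fold between the testis arrays and 5.19% between the ovary arrays. These folds were taken on intensity + 16, which understates differences of dim probe sets. Over all 14 arrays, ovary 1 correlated best with an E13 ovary array (0.974) and ovary 2 with testis 2 (0.967). Testis 2 and ovary 2 carry the same ending of the chip ID in the labels, whereas testis 1 and ovary 1 each carry another. What that ending stands for is not stated. Once group means were removed, limma estimated a correlation of 0.38 between arrays that share an ending. The main fit treats the arrays as independent. The part of the ending in the r values above was not tested. The actin 3′ to 5′ ratio, a sign of RNA integrity, was 1.83 and 1.60 in testis and 1.78 and 2.03 in ovary.

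The sex labels were checked on Sry and on Xist, the RNA of the inactive X chromosome. Sry read 45.9 and 37.1 in E14 testis, against 13.1 and 24.5 in E14 ovary. The testis arrays lay above both ovary arrays, but the difference did not pass the test (log2 0.74, limma adjusted p = 0.427). Xist read 269 and 1.9 in E14 testis, against 672 and 224 in E14 ovary. The array labelled E14 testis 1 thus held more Xist than ovary 2, which goes against its label, while its Sry was the highest of the 4. Results are therefore also given without that array where it changes them.

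Of the 15866 probe sets, 22 (0.139%) differed between E14 testis and ovary at an adjusted p under 0.05 in limma, called passing from here on. There were 11 higher in testis (0.0693%) and 11 lower in testis (0.0693%), and 19 of the 22 carry 1 gene symbol. The log2 differences ran between 1.65 and 4.05 among those higher in testis, and fell by 1.37 to 2.19 on the log2 scale among those lower. At an unadjusted p under 0.05 there were 1270. The spread was estimated over all 14 arrays and 7 groups, since 2 arrays a group give little on their own. All 22 kept the arrays of the sexes apart, but so did 18.3% of all probe sets in the direction of testis and 16.2% in that of ovary, so that separation alone says little with 2 arrays a group. The median log2 difference of all probe sets was 0.021. At a passing share of 0.139%, a short gene list is likely to hold no passing gene, so 0 passing in a list says little.

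**Figure D1:**
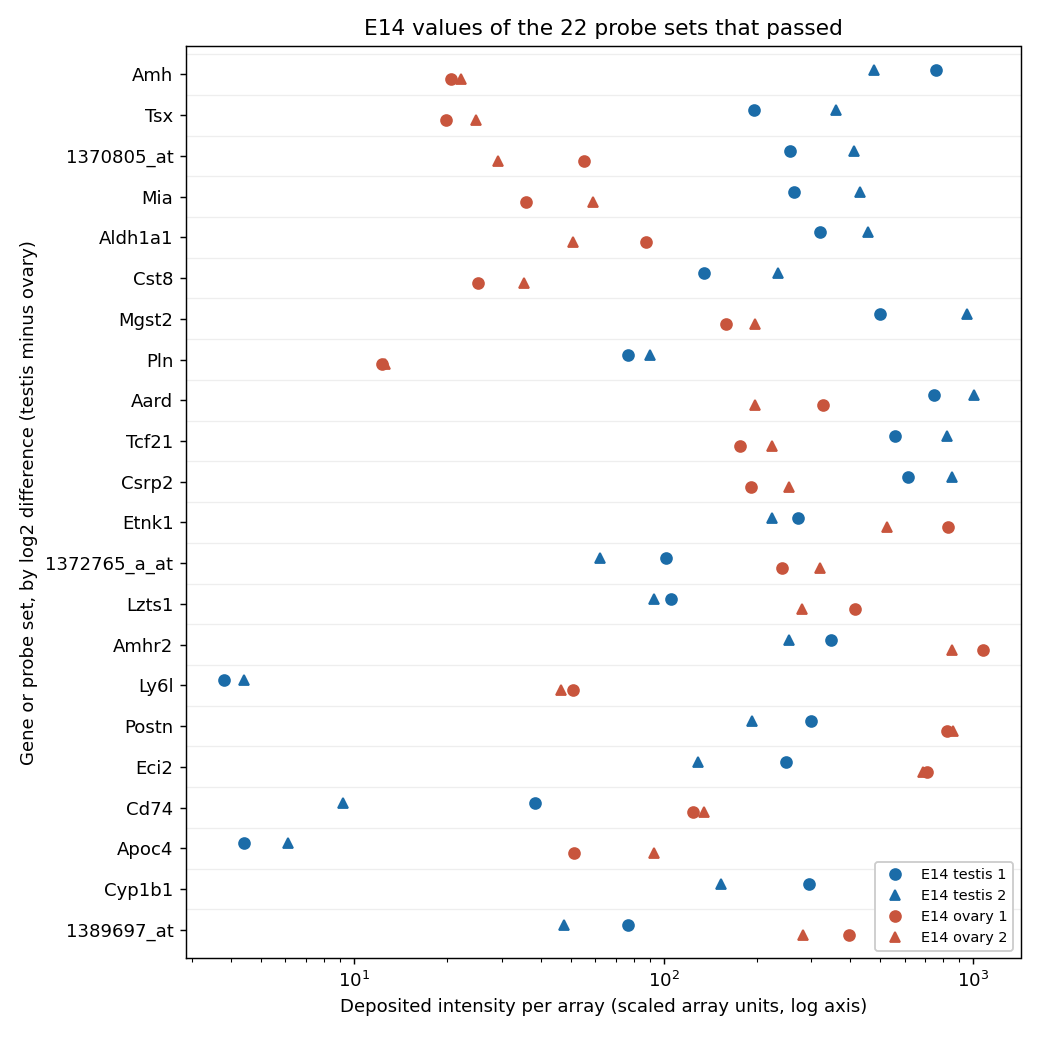
Intensity in each E14 array (log axis) of the 22 probe sets that passed, in testis (blue) and ovary (red), with replicate 1 as circles and replicate 2 as triangles. Amh and Tsx at the testis-high end and Apoc4 and Ly6l at the ovary-high end show the widest gaps relative to their levels, and no gene has overlapping groups.

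Amh, the hormone of Sertoli cells, had the largest log2 difference of the 22, and its own type II receptor Amhr2 was among the genes lower in testis. Amh read 759.6 and 477 in E14 testis, against 20.6 and 22.1 in E14 ovary. Its mean was 618 ± 200 in testis and 21.4 ± 1.1 in ovary (SD, n = 2 each), a log2 difference of 4.05 ± 0.30 (SE, limma adjusted p = 0.000422). When each of the 14 arrays was left out in turn, Amh passed 14 times. Amhr2, which binds AMH on its target cells, read 346 and 253 in E14 testis, against 1072 and 856 in E14 ovary. Its log2 difference was -1.64 ± 0.19 (limma adjusted p = 0.00605), and it passed 12 of those 14 times. Most of those 14 fits drop an array of another group, which leaves the E14 difference unchanged and alters only the spread. Ligand and receptor differed in opposite directions at E14, and neither gene's arrays overlapped between the sexes.

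To show what lies in front of these genes, upstream sequences were read from RefSeq (assembly GRCr8), which held one for 15 of the 19 named genes that passed, 8 higher and 7 lower in testis. The 250 bases before each start site were searched on both strands for the half-site of SF-1 (Nr5a1), a nuclear receptor of the gonad, and for a GATA site. Of the 15, 4 held the half-site AGGTCA (Amh, Cst8, Apoc4 and Cd74), against 14.1% of all 33469 upstream sequences. The longer form AAGGTCA, which contains the half-site, was in 4.0% of all and, among the 15, in Amh only. The first 3 sequences show 3 of the 4 genes that hold the half-site, from both sides of the comparison, and leave out Cd74. The half-site is in capitals on either strand, and so are the GATA letters TGATAG of Amh. Cyp1b1 shows the core GCGTG bound by the aryl hydrocarbon receptor.
Amh, chr7:9559868-9560117, minus strand: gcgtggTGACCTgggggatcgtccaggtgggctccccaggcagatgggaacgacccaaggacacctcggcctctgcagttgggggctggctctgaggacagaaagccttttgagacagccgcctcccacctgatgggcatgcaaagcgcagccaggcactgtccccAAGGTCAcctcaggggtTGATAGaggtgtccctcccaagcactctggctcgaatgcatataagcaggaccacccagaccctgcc
Cst8, chr3:156697526-156697775, plus strand: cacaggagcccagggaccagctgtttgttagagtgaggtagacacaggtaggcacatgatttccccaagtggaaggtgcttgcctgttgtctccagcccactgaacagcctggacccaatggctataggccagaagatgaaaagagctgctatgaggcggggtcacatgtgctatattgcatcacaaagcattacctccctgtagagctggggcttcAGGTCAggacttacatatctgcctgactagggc
Apoc4, chr1:88467910-88468159, minus strand: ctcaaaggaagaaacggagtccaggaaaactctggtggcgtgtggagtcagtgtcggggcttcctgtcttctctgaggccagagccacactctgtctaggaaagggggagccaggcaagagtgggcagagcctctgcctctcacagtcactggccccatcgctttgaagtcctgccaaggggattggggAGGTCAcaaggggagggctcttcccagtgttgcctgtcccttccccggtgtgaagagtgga
Cyp1b1, chr6:21094315-21094564, plus strand: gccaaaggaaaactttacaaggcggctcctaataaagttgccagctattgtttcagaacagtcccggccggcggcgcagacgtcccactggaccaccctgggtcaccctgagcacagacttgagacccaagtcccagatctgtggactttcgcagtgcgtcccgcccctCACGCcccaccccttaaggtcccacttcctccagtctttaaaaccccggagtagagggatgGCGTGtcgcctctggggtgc
In Amh, AAGGTCA began 84 bases and TGATAG 67 bases before the start site, and the reverse form TGACCT 244 bases before it. The half-site began 33 bases before the start of Cst8 (higher in testis) and 61 bases before that of Apoc4 (lower in testis). TGATAG stood in 6.4% of all upstream sequences and, of the 15, in Amh. The second GATA form AGATAA stood in 10.3% of all and in Aldh1a1 and Tcf21. The SOX letters AACAAT stood in 10.3% of all and in Cyp1b1 alone of the 15. The core GCGTG stood in 25.9% of all and in 7 of the 15, 2 higher and 5 lower in testis; in Cyp1b1 it began 20 bases before the start and, as CACGC, 81 bases before it. These matches are of letters alone, and binding was not measured.

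Among Sertoli cell genes, Amh and Aard passed and the other 16 of 18 measured did not. Aard, an alanine and arginine rich protein, read 745 and 1008 in E14 testis, against 327 and 197 in E14 ovary (log2 1.71, limma adjusted p = 0.0366). It passed in 3 of the fits that each dropped 1 of the 14 arrays. The median of the 18 was a log2 difference of 0.11, against 0.021 over all probe sets. Tesc, a calcium-binding protein, lay just outside the threshold with 57.4 and 45.0 in E14 testis, against 6.1 and 15.2 in E14 ovary (log2 1.35, limma adjusted p = 0.0808). Krt18, a keratin, had a log2 difference of 0.81 (limma adjusted p = 0.164), Vnn1, a pantetheinase, one of 0.81 (0.432), and Fgf9, a growth factor that sustains the male path in mouse, one of 0.66 (0.421). Gata4, Wt1 and Dmrt1, transcription factors of the early gonad, had 95% intervals of the log2 difference of -0.62 to 0.34, -0.68 to 0.20 and -0.64 to 0.36, in that order. Inhbb, the βB subunit of activin and inhibin, had an interval of -0.80 to 0.62.

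The other testis-high genes have varied roles. Tsx, an X-linked gene named for its expression in testis, read 196 and 361 in E14 testis, against 19.8 and 24.7 in E14 ovary (log2 2.89, limma adjusted p = 0.00653). Cst8, a cystatin-family protein known from the male tract, read 135 and 235 in E14 testis, against 25.2 and 35.3 in E14 ovary (log2 2.08, limma adjusted p = 0.0181). Mia, a small secreted protein known from cartilage and melanoma, read 263 and 431 in E14 testis, against 35.9 and 59.2 in E14 ovary (log2 2.50, limma adjusted p = 0.0181). In all 3 genes testis 1 was the lower of the testis arrays and still above both ovary arrays. The probe set 1370805_at, which the annotation gives several symbols, read 255 and 412 in E14 testis, against 55.4 and 29.1 in E14 ovary (log2 2.59, limma adjusted p = 0.00605). With the beginning of the chip ID as a block, Mia no longer passed (limma adjusted p = 0.0522).

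Aldh1a1 was the gene of retinoic acid metabolism that passed, 1 of 16 measured. This retinaldehyde dehydrogenase read 319.9 and 456 in E14 testis, against 87.4 and 50.8 in E14 ovary (log2 2.26, limma adjusted p = 0.0320). It passed in 2 of those 14 fits, and not without testis 1. Aldh1a2, which makes retinoic acid in the embryo, read 1031 and 1153 in E14 testis, against 449.7 and 618 in E14 ovary, without passing (log2 1.03, limma adjusted p = 0.161). Crabp2, a retinoic acid carrier, had a log2 difference of 0.77 (limma adjusted p = 0.605), and the receptors Rara, Rarb and Rarg lay between -0.12 and 0.02. The median of the 16 was 0.01.

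Tcf21, Csrp2 and Pln also passed as higher in testis. Tcf21, a transcription factor of mesenchymal progenitors, read 557 and 825 in E14 testis, against 177 and 225 in E14 ovary (log2 1.69, limma adjusted p = 0.0448). Csrp2, a LIM protein of smooth muscle, read 615 and 857 in E14 testis, against 191 and 254 in E14 ovary (log2 1.65, limma adjusted p = 0.0379). Pln, phospholamban, which restrains the calcium pump of muscle, read 76.6 and 90.2 in E14 testis, against 12.3 and 12.6 in E14 ovary (log2 1.80, limma adjusted p = 0.00598). A second Pln probe set gave a log2 difference of 1.33 and did not pass (limma adjusted p = 0.139). Pln was the 1 of 13 measured smooth muscle and peritubular genes that passed. The median of those 13 was 0.54, and 11 of them had positive differences, against 53.2% of all probe sets. Tpm1 had a log2 difference of 0.86 (limma adjusted p = 0.167) and Acta2 one of 0.75 (0.529). Tcf21 lost its call with the beginning of the chip ID as a block (limma adjusted p = 0.132), and so did Csrp2 (0.0525).

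Mgst2, a microsomal glutathione transferase, was the detoxification gene higher in testis, and Cyp1b1, a P450 that oxidises estrogens and xenobiotics, the one lower in testis, among 24 measured. Mgst2 read 498 and 957 in E14 testis, against 158 and 197 in E14 ovary (log2 1.88, limma adjusted p = 0.0379). Cyp1b1 read 294 and 154 in E14 testis, against 887 and 977 in E14 ovary (log2 -2.04 ± 0.28, limma adjusted p = 0.0177). The lowest ovary array of Cyp1b1 stood well above the highest testis array. Gsta1, another glutathione transferase, read 267 and 407 in E14 testis, against 58.2 and 136 in E14 ovary, without passing (log2 1.71, limma adjusted p = 0.149). It passed with the beginning of the chip ID as a block (limma adjusted p = 0.0435) and with its ending as a random block (0.0226).

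**Figure D2:**
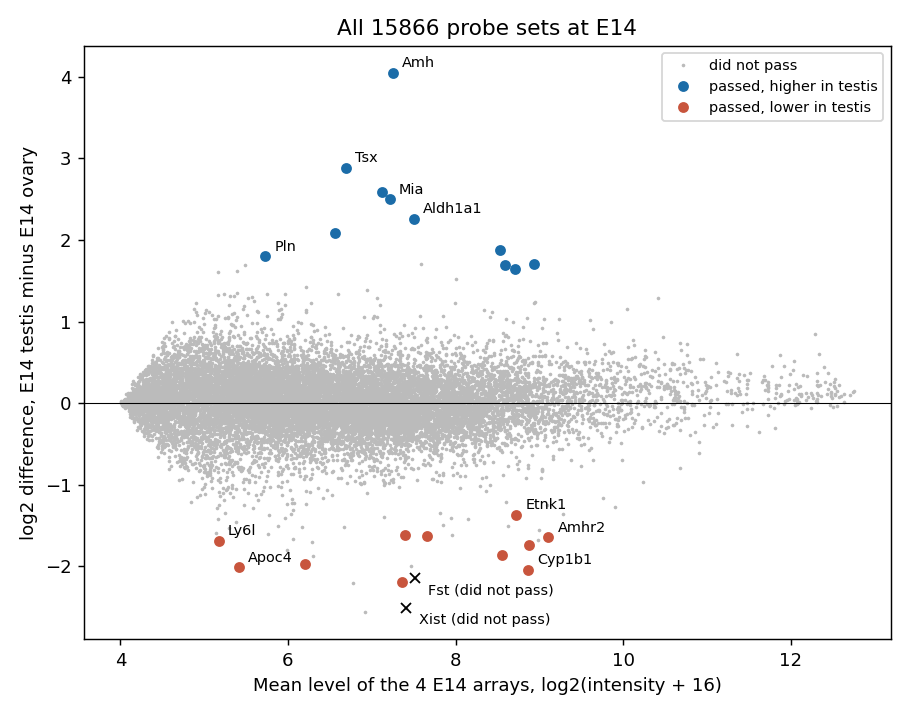
Log2 difference, E14 testis minus E14 ovary, against the mean log2(intensity + 16) of the 4 E14 arrays, for all 15866 probe sets. The 11 that passed as higher in testis reach 4.05 for Amh, the 11 lower in testis end at -2.19, and Xist and Fst lie as far down without passing.

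Eci2, Apoc4 and Etnk1 were among the genes that passed as lower in testis, and none of the pre-granulosa list was. Eci2, an enoyl-CoA isomerase of fatty acid oxidation, read 248.6 and 129 in E14 testis, against 708 and 688 in E14 ovary (log2 -1.87, limma adjusted p = 0.0177). Apoc4, an apolipoprotein, read 4.4 and 6.1 in E14 testis, against 51.4 and 92.8 in E14 ovary (log2 -2.01, limma adjusted p = 0.00605). Etnk1, an ethanolamine kinase of phospholipid synthesis, read 272 and 223 in E14 testis, against 830.4 and 528 in E14 ovary (log2 -1.37, limma adjusted p = 0.0409). It did not pass with the beginning of the chip ID as a block (limma adjusted p = 0.0611) or without testis 1 (0.0910). A further probe set, 1372765_a_at, carries several symbols, Eci2 among them, and read 102 and 62.4 in E14 testis, against 242 and 319 in E14 ovary. Its log2 difference was -1.61 (limma adjusted p = 0.0383). Copies of near-identical sequence can share probes, so how these values divide between the copies is uncertain.

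Postn, periostin, was the 1 of 29 matrix genes that passed. It read 299 and 193 in E14 testis, against 825 and 858 in E14 ovary (log2 -1.74, limma adjusted p = 0.0292; 0.0740 with the beginning of the chip ID as a block). The median of the 29 was -0.02. Mmp2, a gelatinase, read 654 and 759 in E14 testis, against 422 and 313 in E14 ovary, without passing (log2 0.93, limma adjusted p = 0.252). Dcn, decorin, had a log2 difference of 0.95 (limma adjusted p = 0.512) and Lama1, a laminin chain, one of -0.55 (0.427).

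Cd74, the invariant chain that escorts MHC class II, was the 1 of 14 antigen presentation genes that passed. It read 38.4 and 9.2 in E14 testis, against 124 and 135 in E14 ovary (log2 -1.98, limma adjusted p = 0.0320). The class II chains did not pass, with log2 differences of 0.10 for RT1-Da, 0.15 for RT1-Db1, 0.46 for RT1-Ba and -0.59 for RT1-Bb. The median of the 14 was -0.07. Of the 15 measured markers of macrophages and other white blood cells, 0 passed, and their summed intensity was 808 and 796 in testis and 787 and 738 in ovary. The part of such cells in the Cd74 difference was not tested. Ptprc, the leukocyte marker, read 17.9 and 13.2 in E14 testis, against 9.1 and 13.5 in E14 ovary. B2m, the light chain of MHC class I, read 619 and 1160 in E14 testis, against 406 in each E14 ovary array, without passing (log2 1.03, limma adjusted p = 0.378), and its second probe set gave 0.24. With the beginning of the chip ID as a block, B2m passed (limma adjusted p = 0.0374). Psmb9, a subunit of the immunoproteasome, had a log2 difference of -0.75 (limma adjusted p = 0.298).

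Lzts1, Ly6l and an unnamed probe set completed those lower in testis. Lzts1, a leucine zipper protein, read 106 and 92.9 in E14 testis, against 415 and 279 in E14 ovary (log2 -1.63, limma adjusted p = 0.00605). Ly6l, of the Ly6 family, read 3.8 and 4.4 in E14 testis, against 50.9 and 46.7 in E14 ovary (log2 -1.69, limma adjusted p = 0.00605). Its 2 other probe sets, both brighter in the E14 arrays, gave -0.36 (limma adjusted p = 0.645) and -0.17 (0.900), so the probe sets of this gene disagree. The probe set 1389697_at, with no symbol, read 76.8 and 47.5 in E14 testis, against 397 and 283 in E14 ovary (log2 -2.19, limma adjusted p = 0.00448).

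Of the pre-granulosa and ovary genes, 0 of 14 measured passed, and their median log2 difference was -0.66, against 0.021 over all probe sets. The arrays of the sexes did not overlap in 8 of the 14 with testis lower, against 16.2% of all probe sets, and in 2 with testis higher, against 18.3%. Fst, which binds and blocks activin, read 120.2 and 39.5 in E14 testis, against 442 and 309 in E14 ovary (log2 -2.15, limma adjusted p = 0.0808). A second Fst probe set gave -2.56 (limma adjusted p = 0.250). Without testis 1 the first passed, at -2.80 (limma adjusted p = 0.0137), and it also passed with the beginning of the chip ID as a block (0.0220). Bmp2, a ligand of the BMP pathway, read 87.2 and 58.3 in E14 testis, against 280.3 and 163 in E14 ovary (log2 -1.39, limma adjusted p = 0.0655). Lgr5, the R-spondin receptor, read 36.1 and 12.2 in E14 testis, against 75.8 and 97.6 in E14 ovary (log2 -1.41, limma adjusted p = 0.0808). A second, dimmer Bmp2 probe set read 23.7 and 2.0 in E14 testis, against 71.6 and 19.4 in E14 ovary. The arrays of that probe set overlapped between the sexes (log2 -1.06, limma adjusted p = 0.571). In the probe sets given first, all 3 genes kept the sexes apart at E14. Wnt4 did not: it read 98.7 and 72.7 in E14 testis, against 356 and 88.6 in E14 ovary, and its log2 difference of -0.97 had a 95% interval of -2.41 to 0.48.

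In the Wnt list, 0 of 23 measured genes passed, against 0.139% of all probe sets. Negative differences were found in 17 and positive ones in 6, against 53.2% positive over all probe sets, and the median was -0.43. Wif1, a Wnt inhibitor, had a log2 difference of -0.55 (limma adjusted p = 0.487), and Axin2, a target of the pathway, read 44.5 and 58.9 in E14 testis, against 100.4 and 83.0 in E14 ovary (log2 -0.67, limma adjusted p = 0.649). The list of AMH, BMP and activin signalling held 35 measured genes, of which Amh passed as higher, Amhr2 as lower, and 33 did not pass, with a median of -0.11. Among those 33, the activin antagonist Fstl3 read 9.6 and 4.2 in E14 testis, against 41.3 and 37.7 in E14 ovary (log2 -1.29, limma adjusted p = 0.121). The type I receptor Acvr1 had a log2 difference of 0.47 (limma adjusted p = 0.608), and the AMH type I receptor Bmpr1a one of 0.47 (0.787). The mediators Smad1 and Smad5 gave -0.11 and -0.32.

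**Figure D3:**
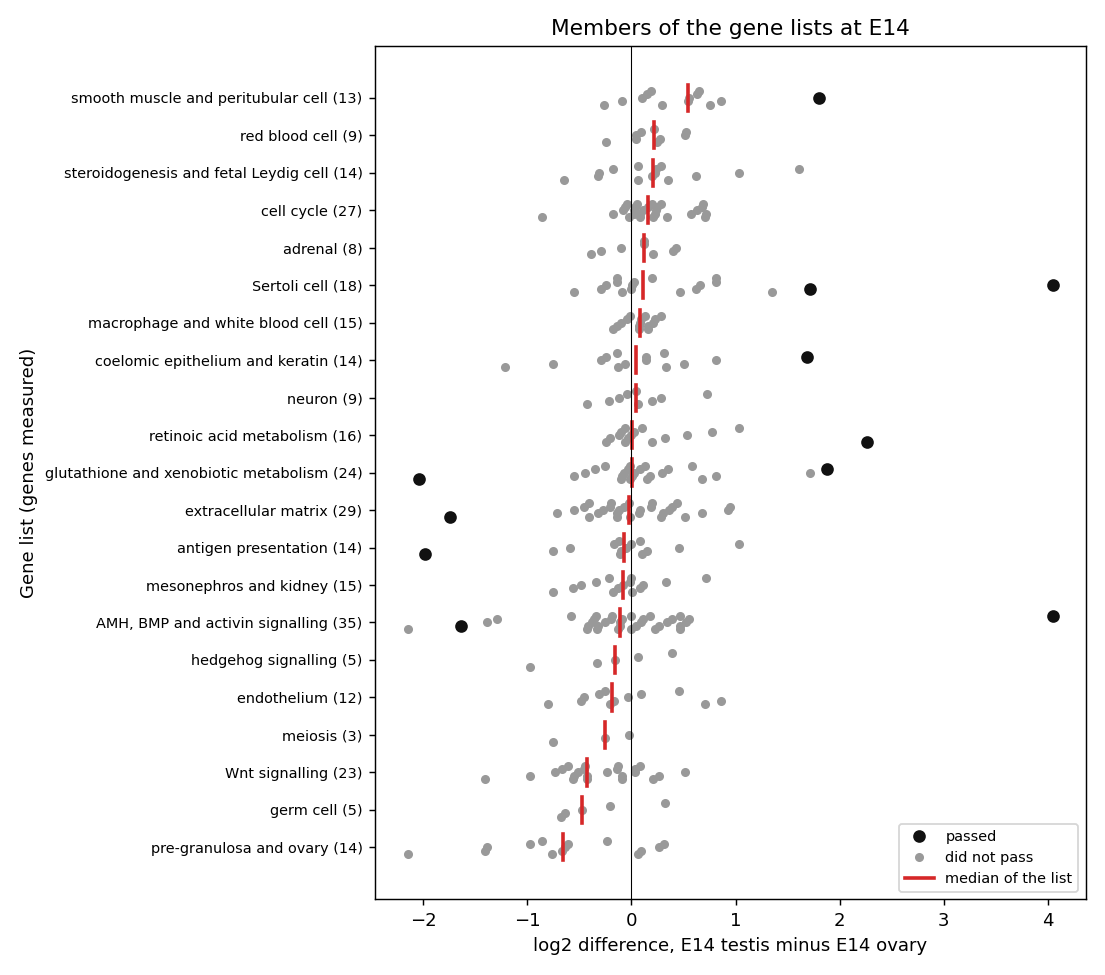
Log2 difference, E14 testis minus E14 ovary, of each measured gene in the lists (points, 1 probe set a gene), with the median of each list. The smooth muscle list has its median at 0.54 and the pre-granulosa list at -0.66, and most points of every list did not pass.

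No gene of steroid production passed at E14 (0 of 14 measured, against 0.139% of all probe sets), and the list's median was 0.21. Cyp11a1, which starts steroid synthesis, read 45.0 and 39.8 in E14 testis, against 36.4 and 33.5 in E14 ovary (log2 0.20, 95% interval -0.29 to 0.68). Cyp17a1, the androgen-forming P450, read 4.3 and 3.9 in E14 testis, against 26.8 and 7.1 in E14 ovary (log2 -0.65, 95% interval -1.72 to 0.42). Hsd3b1, the dehydrogenase of the pathway, read 19.2 and 95.6 in E14 testis, against 6.1 and 3.2 in E14 ovary (log2 1.61, limma adjusted p = 0.262). The testis arrays lay far apart, and without testis 1 the gene passed at 2.44 (limma adjusted p = 0.0112). Hsd17b3, which makes testosterone, read 54.8 and 87.9 in E14 testis, against 15.1 and 40.9 in E14 ovary, without passing (log2 1.03, limma adjusted p = 0.421).

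Dividing and germ cells gave no passing gene either. Of 27 cell cycle genes, 0 passed, against 0.139% of all probe sets. Positive differences were found in 21 of them, against 53.2% of all probe sets, and the median was 0.16. Tyms, which makes thymidylate, had a log2 difference of 0.68 (limma adjusted p = 0.541), the kinase Cdk1 one of 0.69 (0.593) and Mki67 one of 0.16 (0.878). Cdkn1b, the p27 inhibitor, read 205 and 152 in E14 testis, against 327 and 340.0 in E14 ovary (log2 -0.86, limma adjusted p = 0.384). Of germ cell genes only 5 of 18 were measured, 0 passed and the median was -0.47. Of meiosis genes 3 of 16 were measured and 0 passed, with Sycp2, a synaptonemal complex protein, at -0.75 (limma adjusted p = 0.565).

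Markers of other tissues that a dissected gonad can carry were summed in each array. Endothelial markers, 12 in number, summed to 1182 and 1139 in E14 testis and to 1715 and 851 in E14 ovary. Red blood cell markers, 9 in number, summed to 14986 and 17958 in testis and to 16689 and 12744 in ovary. The 15 mesonephros and kidney markers summed to 684 and 519.6 in testis and to 665 and 868 in ovary. The brightest of them, Emx2, is also in the list of coelomic epithelium and keratins. Without Emx2 the sums were 423.5 and 339.6 in testis and 372.7 and 385.5 in ovary. The 8 adrenal markers summed to 143 and 169 in testis and to 123 and 163 in ovary, and the 9 neuron markers to 584 and 466 in testis and to 557 and 559.9 in ovary. Without Nefm, the brightest neuron marker, the neuron sums were 286.3 and 199.7 in testis and 199.1 and 296.4 in ovary. The groups overlapped in these sums for endothelium, red blood cells, mesonephros, adrenal and neuron, and 0 markers of these lists passed. In the list of coelomic epithelium and keratins, Tcf21 was the 1 of 14 that passed; Krt19, which did not, read 306 and 188 in E14 testis, against 507 and 652 in E14 ovary (log2 -1.21, limma adjusted p = 0.352). In the hedgehog list 0 of 5 passed.

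Several genes besides Tesc and Bmp2 stood just outside the threshold. Rasgrp4, an exchange factor for Ras, read 28.6 and 30.7 in E14 testis, against 5.2 and 1.9 in E14 ovary (limma adjusted p = 0.0748), and it passed with the beginning of the chip ID as a block (0.0446). Ctsk, a collagen-degrading cathepsin, read 60.5 and 53.6 in E14 testis, against 11.9 and 24.1 in E14 ovary (limma adjusted p = 0.0748). Spsb1 had a log2 difference of 1.12 (limma adjusted p = 0.0788) and Apod, a lipid carrier, one of 1.22 (0.0808). All 4 were dim genes, and their testis arrays lay above their ovary arrays. On the other side, Tst, a mitochondrial sulfurtransferase, read 154 and 117 in E14 testis, against 389 and 379.7 in E14 ovary (limma adjusted p = 0.0579). Klk1, a kallikrein protease, read 64.5 and 29.0 in E14 testis, against 178 and 139 in E14 ovary (limma adjusted p = 0.0748). Baiap2l1, which shapes membranes and actin, read 34.2 and 19.7 in E14 testis, against 126 and 87.6 in E14 ovary (limma adjusted p = 0.0748), and Mtus2 had a log2 difference of -1.23 (0.0788). These values differ little in p from the last genes inside the threshold, Tcf21 at 0.0448 and Etnk1 at 0.0409. With the ending of the chip ID as a random block, all 10 genes just outside, Tesc and Bmp2 included, passed, with limma adjusted p between 0.0140 and 0.0337.

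To set E14 in time, the same 22 probe sets were read at E13 and E16. They were picked for a large difference at E14, which by itself makes their differences at other ages look smaller. At E13, 0 of the 22 passed, while over all probe sets 2 did (0.0126%). Of the 11 higher in testis at E14, 11 had the same sign at E13, with a median log2 difference of 0.66 at E13 and 2.08 at E14. Of the 11 lower, 10 had the same sign, with medians of -0.63 at E13 and -1.74 at E14. For each probe set the tests at E13, E14 and E16 share the same estimate of spread. Passing at E16 is therefore not independent of passing at E14. The actin 3′ to 5′ ratio was 1.607 and 1.621 in E16 testis and 3.345 and 1.638 in E16 ovary. At E16, where 276 probe sets passed (1.74%), 10 of the 11 higher and all 11 lower also passed. The exception was Mia, which read 248 and 181 in E16 testis, against 61.5 and 114.5 in E16 ovary (log2 1.18, limma adjusted p = 0.145).

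The test of the change itself, the E14 sex difference minus the E13 one, passed for 0 of 15866 probe sets (0%) in limma, with 620 at an unadjusted p under 0.05. Amh came closest among the 22. It read 79.5 and 63.9 in E13 testis, against 24.5 and 38.5 in E13 ovary, and its sex difference was larger at E14 by 3.15 on the log2 scale (limma adjusted p = 0.0928). Cd74 had the opposite sign at E13, with 96.8 and 119 in E13 testis, against 90.8 and 92.8 in E13 ovary (log2 0.20, 95% interval -0.45 to 0.85). Its change between the ages was -2.17 and did not pass (limma adjusted p = 0.731). Amhr2 read 437 and 477 in E13 testis, against 592 and 563 in E13 ovary, a change of -1.31 by E14 (limma adjusted p = 0.731).

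The steps of each sex since E13 are given as a description. The probe sets were picked on the same E14 values from which each step is taken. That choice favours rises in testis and falls in ovary among those higher in testis, and the reverse among those lower. Among the 11 higher in testis at E14, the testis mean on the log2 scale was above its E13 value in 11 and the ovary mean in 5, with median steps of 1.49 in testis and -0.15 in ovary. Amh stepped by 2.82 in testis and by -0.33 in ovary, and Mia by 2.43 in testis and 0.40 in ovary. Tcf21 had its larger step in ovary, with 0.23 in testis and -0.91 in ovary, as did Csrp2, with 0.34 in testis and -0.67 in ovary, and Mgst2, with 0.45 in testis and -0.76 in ovary. Among the 11 lower in testis, the testis mean was above its E13 value in 0 and the ovary mean in 10, with median steps of -0.60 in testis and 0.43 in ovary. Cyp1b1 stepped by -0.32 in testis and by 0.84 in ovary, Amhr2 by -0.60 in testis and 0.72 in ovary, while Postn stepped by -1.13 in testis and 0.43 in ovary and Cd74 by -1.74 in testis and 0.43 in ovary.

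**Figure D4:**
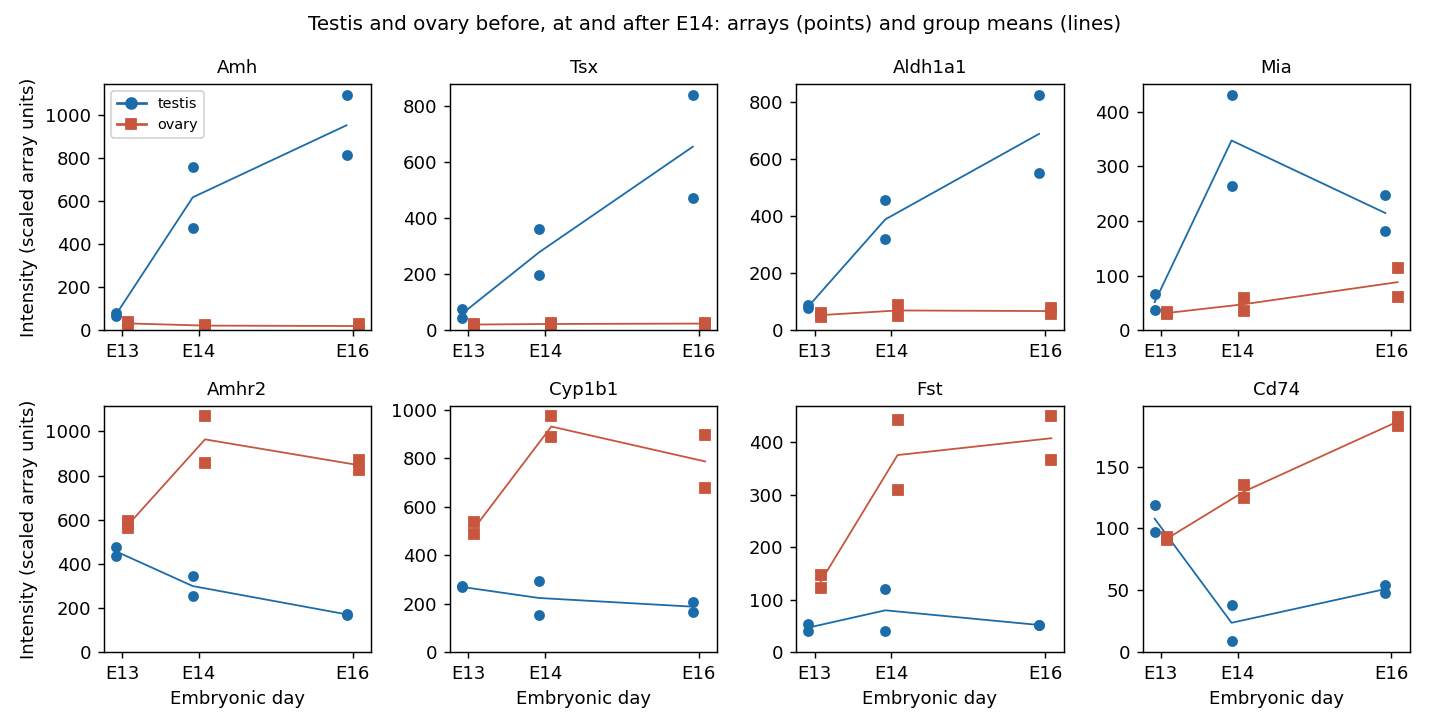
Intensities of 8 genes at E13, E14 and E16 in testis (circles) and ovary (squares), with arrays as points and group means as lines. Amh and Tsx part mainly through testis, Cyp1b1 and Fst mainly through ovary, and Cd74 has its testis arrays above its ovary arrays at E13 and below them at E14.

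The E16 sex difference minus the E14 one passed for 7 probe sets (0.0441%), all with a positive change, testis minus ovary, with 651 at an unadjusted p under 0.05. The change in the signed difference was 6.54 on the log2 scale for Cyp17a1 (limma adjusted p = 0.00529), 4.90 for Hsd3b1 (0.0116), 4.23 for Star (0.00529) and 3.74 for Cyp11a1 (0.00141), which are genes of steroid production. It was 6.24 for Cpa1, a carboxypeptidase (limma adjusted p = 0.00141), which read 40.2 and 21.7 in E14 testis, against 35.8 and 43.2 in E14 ovary. Nppc, a natriuretic peptide, and Susd3 passed too, with 2.42 (limma adjusted p = 0.00966) and 1.87 (0.0229), and are named because they completed the 7. Star, the cholesterol carrier into mitochondria, read 15.7 and 5.2 in E14 testis, against 32.2 and 35.7 in E14 ovary (log2 -0.95, limma adjusted p = 0.487). This is the Star probe set that passed the test between ages. The brighter one read 28.1 and 19.5 in E14 testis, against 39.1 and 20.4 in E14 ovary, with overlapping arrays (log2 -0.18, limma adjusted p = 0.941). None of the 22 probe sets that passed at E14 passed this test of a change to E16, where the smallest limma adjusted p among them was 1.

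How far the E14 calls rest on single arrays was examined next. Most fits without 1 array drop an array of another group. That leaves the E14 difference unchanged and alters only the spread. A high count of passes can therefore hide losses in the fits that drop an E14 array. When each of the 14 arrays was left out in turn, 13 of the 22 passed at least 11 times, among them Amh, Pln, Apoc4, Amhr2 and Lzts1. The other 9 passed at most 5 times, with Tcf21 and Etnk1 at 1 and Mgst2, Csrp2 and Cd74 at 3. Within the chip-ID ending that holds both sexes, testis 2 minus ovary 2, all 22 had the direction of the mean, which these arrays helped to set. The gap was smaller between testis 1 and ovary 1 than between testis 2 and ovary 2 in 10 of the 11 higher in testis and in 8 of the 11 lower. Testis 1 lay below testis 2 in 10 of the 11 higher and above it in 9 of the 11 lower, so testis 1 was the array nearer to ovary in most of them. Amh was the exception among the higher genes. Of the genes that did not pass, Hsd3b1 had a difference of 2.54 in the second pair and 0.67 in the first, and Lgr5 -2.01 and -0.82. The part of cells or RNA of the other sex, or of the chip-ID endings, in this pattern was not tested.

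**Figure D5:**
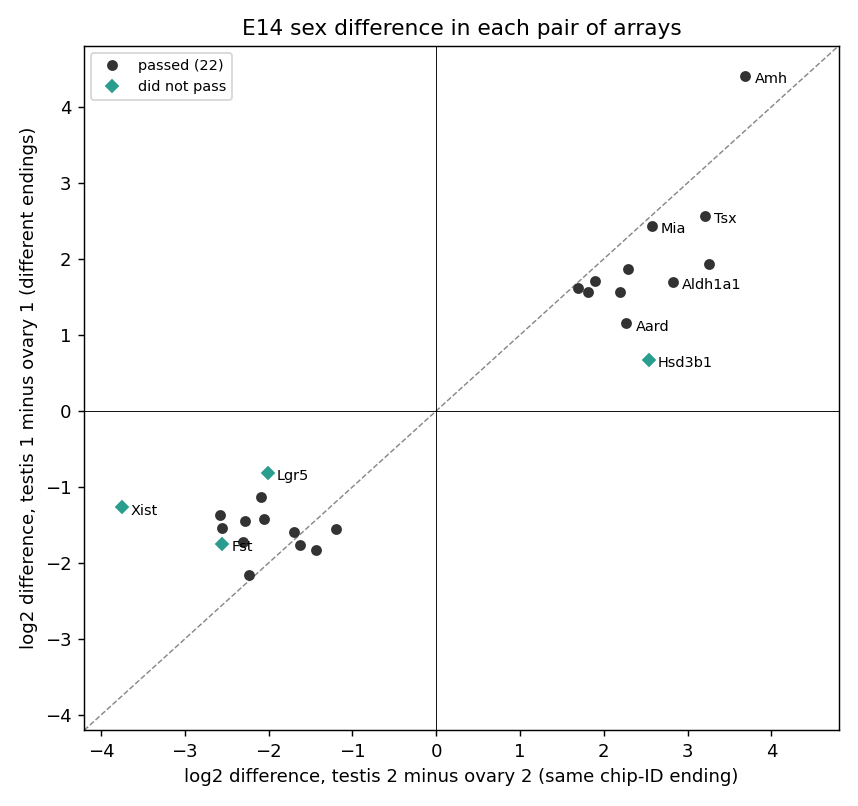
Log2 difference, testis minus ovary, in the pair of arrays numbered 1 (vertical axis) against the pair numbered 2 (horizontal axis), with the line of equality dashed. Most of the 22 points lie nearer to 0 on the vertical axis, and Amh lies above the line.

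Leaving out testis 1, the array with high Xist, gave 32 passing probe sets, 11 higher and 21 lower in testis, of which 19 were among the 22. Aard, Aldh1a1 and Etnk1 were lost. Among the 13 added were Fst, Lgr5, Klk1 and Hsd3b1, described above, and, named after their values were seen, Calb2 (log2 -3.02), Tle6 (-2.40) and Fgf13 (-2.01), all lower in testis. The lone testis array is then assumed to vary like the other groups. Leaving out testis 2 in its place left 1 passing probe set, Amh, and leaving out ovary 1 or ovary 2 left 7 or 9. A further fit left out 4 arrays picked on Xist, namely E14 testis 1, E13 testis 1, cultured E13 testis 1 and E16 ovary 2. Of these, only E14 testis 1 overlapped the other sex at its age. Xist read 36.2 in E13 testis 1, against 662 and 603 in E13 ovary. It read 12.8 in E16 ovary 2, against 3.3 and 1.5 in E16 testis. Cultured testis 1 read 151 and cultured testis 2 read 4.8, with no cultured ovary to compare. That fit leaves a single array in each of these groups. The E14 calls were lost in it, as were those of the change between E14 and E16. The 22 kept their direction in that fit too, which was fixed beforehand because their E14 arrays did not overlap between the sexes.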

How the data were processed

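Values were the deposited intensities, 1 per probe set and array on a linear scale, as the authors submitted them. The summarising software is not given in the sources used here. Each array had been scaled before deposit to a trimmed mean of 125 (2% off each end), as the values show, and no detection calls were used. Per the labels' protocols, RNA was Trizol-extracted and biotin-labelled. Of 15923 probe sets, 57 controls were left out; 12783 of the rest have 1 symbol, 312 several and 2771 none in the platform annotation.

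Values were analysed as log2(intensity + 16), which understates changes of dim probe sets. Limma 3.58.1 (R 4.3.3) fitted 7 groups to 14 arrays (7 residual and 4.16 prior degrees of freedom), with Benjamini-Hochberg adjustment over 15866 probe sets and a threshold of 0.05; the fit was tested on simulated data. Replicates are 2 pools a group. The small number of arrays limits precision.

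Genes named were all that passed with 1 symbol, the 5 nearest outside in each direction, up to 2 members per list and direction with the smallest p (if under 0.05 unadjusted), up to 5 passing per direction in the tests between ages, and Sry, Xist, Amh and Amhr2; others given for context were taken from the lists. Where several probe sets share a gene, the lists use the brightest over all arrays. A probe set that passed a test is named whatever its brightness. Gene lists (22: Sertoli, steroidogenic, pre-granulosa, AMH/BMP/activin, Wnt, germ cell, meiosis, cell cycle, matrix, smooth muscle, retinoic acid, detoxification, hedgehog, antigen presentation, macrophage, red blood cell, endothelium, mesonephros, adrenal, neuron, coelomic and keratin, sex check) are described by counts and medians. The comparison and the lists were chosen with earlier results of these data known. Alternatives changed offset, normalization, filter, prior, blocks and arrays.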

Additional observations from a re-analysis of the deposited data

Results flagged for a closer look

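For 7 genes the signed difference, testis minus ovary, was higher at E16 than at E14 by a limma test of the change itself: 3.74 on the log2 scale for Cyp11a1, 4.90 for Hsd3b1, 6.24 for Cpa1, 1.87 for Susd3, 6.54 for Cyp17a1, 4.23 for Star and 2.42 for Nppc. At E14 none of these genes passed between testis and ovary. Cd74 was flagged because its arrays were apart in opposite directions at E13 and E14. Such separation is common with 2 arrays a group. At E14 it held for 16.2% of all probe sets with testis lower, as in Cd74, and for 18.3% with testis higher. The log2 difference of Cd74, testis minus ovary, was 0.20 at E13 (95% interval -0.45 to 0.85) and -1.98 at E14. The E13 interval includes both signs. The change was -2.17, which did not pass (limma adjusted p = 0.731).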

How the results depend on the processing

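All tested alternatives kept the direction of the E14 calls that they could test. The E14 arrays of the sexes did not overlap in any call, so leaving out arrays or changing the offset could not reverse one. Against 22 passing probe sets, an offset of 1 gave 11 (10 of them among the 22), an offset of 64 gave 28 (9 higher and 19 lower), quantile normalization 25 (11 higher and 14 lower), a filter at a mean intensity of 50 gave 28 (11 higher and 17 lower; Apoc4, Ly6l and Pln fell under it), and an intensity trend with a robust prior 25. The replicate block gave 36, with all 22 among them; replicate numbers have no stated pairing, and the correlation of same-numbered deviations between testis and ovary was 0.282. The beginning of the chip ID as a block gave 35 (17 shared; Csrp2, Etnk1, Mia, Postn and Tcf21 lost), and its ending as a random block 93, with all 22 among them. Gsta1 (limma adjusted p = 0.0353), Fst (0.0186), Bmp2 (0.0451), Rasgrp4 (0.0310), Baiap2l1 (0.0446) and Mtus2 (0.0452) passed with the replicate block, and Hsd3b1 (0.0466), Mmp2 (0.0491) and Lgr5 (0.0176) with the random block. Leaving out 1 array gave 1 to 32, namely 1 without E14 testis 2, 7 and 9 without either E14 ovary array, 13 without an E13 ovary or E16 testis array, 15 without an E16 ovary array, 17 without an E13 testis array, 21 without a cultured array and 32 without E14 testis 1. Without the 4 arrays of discordant Xist, limma gave 0 (1338 at an unadjusted p under 0.05), and with the 4 E14 arrays alone 0 (871); both leave fewer arrays for the spread. The 12 arrays of fresh gonads gave 21. For the change between E13 and E14, the count was 0, against 2 with an offset of 1, 2 with the filter, 3 with the random block and 0 to 1 on leaving out 1 array (1 without E13 testis 2). For the change between E14 and E16, the count was 7, against 2 with an offset of 1, 26 with the random block, 4 to 11 on leaving out 1 array (4 without E16 testis 2, E14 ovary 2 or E16 ovary 2, and 11 without E16 testis 1) and 0 without the 4 arrays (810 unadjusted). The E14 values of 2 genes that did not pass changed sign: Cyp17a1 (main -0.65) to 0.15 and Cpa1 (main -0.27) to 0.06 with the beginning of the chip ID as a block, and Cpa1 ran between -0.55 and 0.02 on leaving out 1 array, with 0.02 without E14 testis 2. The cause of these moves was not tested.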
